A study of Arabidopsis thaliana with 40 samples.

Results

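The regions described here are the 10% of the H3K9/14ac regions of Arabidopsis seedlings that carried the least of the mark per length in water at 3 h, and they were chosen by that measured level. H3K9/14ac is acetylation of lysines in the tail of histone H3. The level was the submitters' mean log2 normalised read count in the water libraries of 3 h, less the log2 of the region's width in kilobases. The 1336 lowest of 13362 regions were taken, and they are called weak regions below. Their authors' normalised reads per kilobase in water at 3 h had a median of 112, with quartiles of 98.2 and 121 and a lowest value of 0.867. The other 12026 regions had a median of 223 and reached 1293. These values chose the regions and are a description. The limit cut through a continuum: the last 3 regions inside it, at AT4G13730, CYP72A8 and AAPT2, had 128.75, 128.80 and 128.83 reads per kilobase, and the first 3 outside, at AT5G24210, AT5G43822 and AT1G21200, had 128.87, 128.89 and 128.90.

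The plants were 7-day-old Col-0 seedlings grown in shaken liquid culture with sucrose under short days, and whole seedlings were harvested. They received 5 µM TSA (trichostatin A, an inhibitor of histone deacetylases), 250 µM GSNO (S-nitrosoglutathione, a nitric oxide donor), 250 µM GSH (reduced glutathione, the donor without its nitroso group), 250 µM GSNO with 500 µM cPTIO (which scavenges nitric oxide), or water. Harvest was at 3 h or 16 h, and the hour of day was not given in the labels. Chromatin was precipitated with an antibody to acetylated H3K9/14 in 2 biological replicates per group, and a matched input was sequenced for each. Whole reads per region could be recovered from the deposited group means for 17 ChIP libraries. They are 2 libraries of each group except TSA at 16 h, which has peak lists only, and water at 16 h, whose mean rested on 1 library. The labels do not tie the recovered libraries to replicate numbers, so the members of a pair are called the shallower and the deeper library and are given in that order.

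Acetylation of these lysines by histone acetyltransferases marks nucleosomes around the starts of transcribed genes, and deacetylases remove it. In leaves the mark is known to rise and fall over the day at light-regulated genes. The genes that recur among the weakest regions encode chlorophyll-binding antenna proteins of the photosystems, which capture light in the thylakoid, and components of the circadian clock and of light signalling, which set gene expression to the hour of day.

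In genomic setting the weak regions were close to the rest. Their median width was 733 bases, against 719 for the other regions, although width entered the rule. A protein-coding gene was the gene overlapped most by 96.1% of the weak regions and by 97.2% of the others. No annotated gene lay under 11 weak regions (0.823%) and under 37 others (0.308%). Chromosome 2 held 18.4% of the weak regions and 15.5% of the others, the widest gap of any chromosome. The median number of coding genes within 50 kb was 27 for the weak regions and 28 for the rest. The 1336 weak regions were linked to 1318 distinct genes, and 52.1% of them to a gene without a symbol, against 55.8% of the other regions.

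Outside the water libraries of 3 h the weak regions were low too, but to a degree that depended on treatment and time. They received 7.85% and 8.003% of all reads in regions with TSA at 3 h. With GSNO the shares were 4.89% and 6.59%, with GSH 5.82% and 6.24%, and with GSNO and cPTIO 4.80% and 5.80%, against 3.90% and 5.43% in water at 3 h. Both TSA libraries stood above all 15 others. At 16 h the shares were 5.99% and 6.86% with GSNO, 6.13% and 7.13% with GSH, and 5.86% and 6.12% with GSNO and cPTIO, against 5.99% in the only water library. In each pair the shallower library gave the smaller share, and whether depth has a part in these shares was not tested. The libraries held between 1590342 and 4053207 reads in regions. All values are relative to the reads in all regions of a library, so a change common to all regions would not be seen. In whole seedlings fewer nuclei with the mark and less of it per nucleus cannot be told apart.

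**Figure D1:**
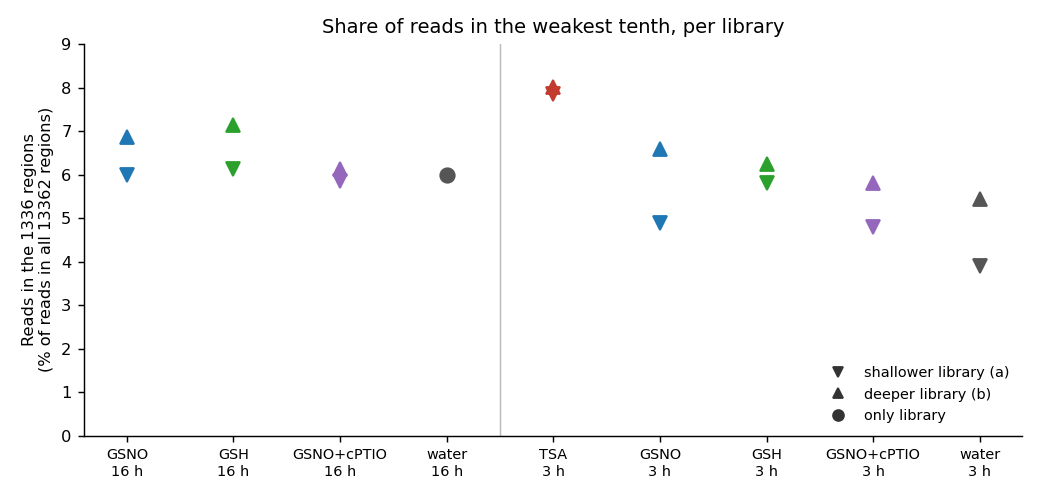
Percent of the reads in all 13362 regions that fell in the 1336 weak regions, 1 point per recovered library, by treatment and time. The TSA libraries lie highest at 7.85% and 8.003%, and within each pair the shallower library lies lower.

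The widest contrast between treatments and times lay in a short tail of the weakest regions. In the 25 weakest, the median normalised reads per kilobase at 3 h were 206 with TSA, 41.3 with GSNO, 44.5 with GSH and 19.8 with GSNO and cPTIO, against 20.2 in water. At 16 h the same regions had 269 with GSNO, 258 with GSH and 275 with GSNO and cPTIO, against 277 in water. The 16 h medians of this tail lay above those of the other 12026 regions, which were 240 to 242 in all groups of that time. None of the 25 was in the lowest 10% of every library of any 16 h group, whereas 24 of them were so with GSNO at 3 h, 25 with GSH, 24 with GSNO and cPTIO and 3 with TSA. In water at 16 h, 19 of the 25 exceeded the median of the other regions. No source used here says which peak lists defined the set of regions. A region nearly empty in water at 3 h may be in the set through peaks of TSA or of 16 h. High levels of this tail there, also at the single genes below, are thus a description. What part such entry has was not tested. Antenna, clock and light-signalling genes, described below, made up much of this tail. Beside them it held CDF2 (rank 13), a relative of CDF3, PSAL (17), a photosystem I subunit, BBX18 and STH (18 and 19), which encode B-box proteins, and CH1 (22), which makes chlorophyll b. RPT2, a protein of phototropism, followed at rank 26, and these 6 were named after their ranks were seen.

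The bulk of the weak regions showed no such exchange. In the 836 regions of ranks 501 to 1336 the medians were 194 reads per kilobase with TSA, 152 with GSNO, 157 with GSH and 140.0 with GSNO and cPTIO, against 129 in water at 3 h. At 16 h they were 154 with GSNO, 159 with GSH and 142 with GSNO and cPTIO, against 146 in water. The median of these regions lay under that of the other regions in every group, and TSA gave the highest median. Single regions did not all stay low: of all 1336, 138 exceeded the median of the other regions in both TSA libraries and 109 in the water library of 16 h. Of all 1336, 474 (35.5%) were also in the lowest 10% of the water library of 16 h. Of the other 16 h groups, GSNO had 267 (20.0%) in the lowest 10% of both libraries, GSH 285 (21.3%) and GSNO with cPTIO 245 (18.3%).

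**Figure D2:**
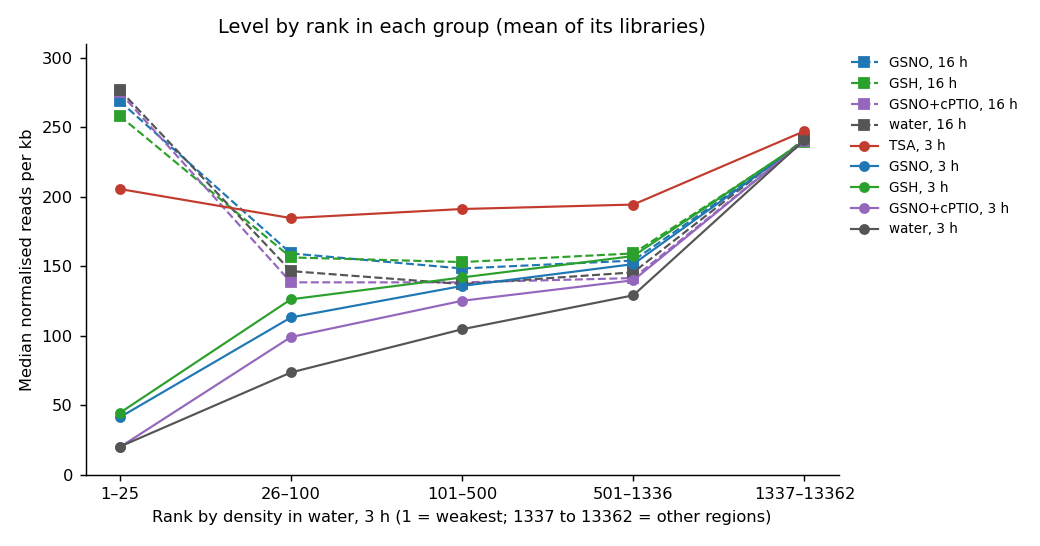
Median normalised reads per kilobase of the weak regions in blocks of rank and of all other regions, by treatment and time, with squares for 16 h and circles for 3 h. The block of the 25 weakest regions has medians from 258 to 277 at 16 h and from 19.8 to 44.5 at 3 h without TSA, with TSA at 206.

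Genes of the light-harvesting antenna and of photosystem I made up 12 of the weak regions, out of 18 regions linked to the 22 photosynthesis genes looked up. The 12 were LHCA1, LHCA3 and LHCA4 of the photosystem I antenna, LHCB2.1, LHCB2.2, LHCB3, CAB1 and LHB1B2 of the major photosystem II antenna, LHCB4.2, LHCB5 and LHCB6 of the minor antenna, and PSAD-2, a photosystem I subunit that docks ferredoxin. TSA exceeded GSNO at 6 of the 12, GSH at 6 and GSNO with cPTIO at 8 (limma, adjusted p under 0.05), and none was lower. The share of all regions called higher was 3.67%, 2.07% and 5.89% in these comparisons. The median log2 differences over the 12 were 1.73, 1.77 and 1.52, against medians over all 13362 regions of 0.01, 0.00 and 0.02. The 3 comparisons share the TSA libraries.

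LHCA1 encodes a chlorophyll-binding subunit of the photosystem I antenna. Its region, at chr3:20339859-20340964 (TAIR10, as deposited), was the sixth weakest. It had 233 and 329 normalised reads with GSNO, 305 and 295 with GSH, 414 and 337 with GSNO and cPTIO, and 344 in water at 16 h. It had 245 and 259 with TSA, 58.6 and 65.4 with GSNO, 53.9 and 60.8 with GSH, 71.4 and 44.4 with GSNO and cPTIO, and the floor and 5.47 in water at 3 h, where the floor means the 1 read that is the lowest value in the deposited tables. All 16 h libraries and both TSA libraries lay above every other library of 3 h. TSA exceeded GSNO by a log2 difference of 2.01 ± 0.41 (SE; adjusted p = 0.00338), and GSNO at 16 h exceeded GSNO at 3 h by 2.14 ± 0.41 (SE; adjusted p = 0.00936, up to 0.102 without 1 library), by limma on log2(normalised reads + 1). Here and below, a second p is the largest found when 1 library was left out, where the call was then lost.

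LHCB2.1 encodes a protein of the trimeric major antenna of photosystem II. At chr2:1823578-1824356 it had 212 and 207 normalised reads with GSNO, 177 and 170.5 with GSH, 239 and 202 with GSNO and cPTIO, and 200.2 in water at 16 h. It had 177 and 150.4 with TSA, 19.5 and 41.9 with GSNO, 23.1 and 27.8 with GSH, 34.3 and 26.8 with GSNO and cPTIO, and 19.7 and 19.6 in water at 3 h. The 16 h libraries, from 170 to 239, and the TSA libraries again did not overlap the other 3 h libraries, of which none passed 42. TSA exceeded GSH by 2.64 ± 0.55 (SE; adjusted p = 0.00512, up to 0.0756 without 1 library) and GSNO with cPTIO by 2.39 ± 0.55 (SE; adjusted p = 0.00496, up to 0.0712 without 1 library). LHCB2.1, LHCB2.2, CAB1 and LHB1B2 belong to a family of near-identical genes, and no source used here says how reads that match several copies were counted, so their single values are uncertain.

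Of the 3 minor antenna genes, LHCB6 and LHCB5 passed in all 3 comparisons with TSA, without exception when 1 library was left out. LHCB6, which encodes CP24, had 325 and 267 normalised reads with GSNO, 347 and 262 with GSH, 461 and 372 with GSNO and cPTIO, and 345 in water at 16 h. It had 323 and 295 with TSA, 94.7 and 89.6 with GSNO, 140.5 and 111 with GSH, 166 and 145 with GSNO and cPTIO, and 63.4 and 86.8 in water at 3 h. The TSA pair lay above all GSNO, GSH and cPTIO libraries of 3 h, and TSA exceeded GSNO by 1.73 ± 0.21 (SE; adjusted p = 3.02e-05), GSH by 1.30 ± 0.21 (SE; adjusted p = 8.06e-04) and GSNO with cPTIO by 0.99 ± 0.21 (SE; adjusted p = 0.00234). The region also touches AT1G05207, and without strand the genes' shares cannot be told apart. LHCB5, which encodes CP26, differed by a similar amount: TSA exceeded GSNO by 1.75 ± 0.25 (SE; adjusted p = 2.26e-04) and GSH by 1.62 ± 0.25 (SE; adjusted p = 6.22e-04). For LHCB4.2, which encodes CP29, the same log2 differences were 0.74 (adjusted p = 0.0509) and 0.58 (adjusted p = 0.141), short of the threshold.

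Between the times the antenna genes moved the same way in all 3 chemicals measured at both. Higher at 16 h than at 3 h were 8 of the 12 with GSNO, 8 with GSH and 9 with GSNO and cPTIO, and none was lower, where 0.614%, 0.269% and 1.89% of all regions were called higher. The median log2 differences over the 12 were 1.91, 1.83 and 2.01. LHCA4 exceeded its 3 h level by 2.07 ± 0.34 (SE; adjusted p = 0.00206, up to 0.0742 without 1 library) with GSNO, 2.21 ± 0.34 (SE; adjusted p = 0.00172, up to 0.132 without 1 library) with GSH and 2.07 ± 0.34 (SE; adjusted p = 8.69e-04) with GSNO and cPTIO. PSAD-2 had 288 and 238 normalised reads with GSNO at 16 h, against 94.7 and 111 at 3 h, a difference of 1.35 ± 0.24 (SE; adjusted p = 0.00432, up to 0.163 without 1 library). PSAD-2 with TSA at 3 h, at 163 and 126, stayed under all of its 16 h libraries. CAB1 passed in no comparison between times: its 16 h to 3 h differences were 0.43 with GSNO, 0.65 with GSH and 1.11 with GSNO and cPTIO (adjusted p = 0.727, 0.805 and 0.0742). LHCB2.2 and LHB1B2 did not pass either, with at most 51.1 normalised reads in the 3 h libraries other than TSA.

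Clock and light-signalling genes held 8 weak regions of the 16 linked to the 23 such genes looked up: GI, PRR7, PRR9 and ELF4 of the clock, CDF1 and CDF3, which encode repressors of the flowering regulator CONSTANS, PIF4, a growth-promoting factor held back by phytochrome, and STO, a light-signalling B-box protein. TSA exceeded GSNO at 5 of the 8, GSH at 3 and GSNO with cPTIO at 5, with none lower, where 3.67%, 2.07% and 5.89% of all regions were called higher. At 16 h the chemicals exceeded their own 3 h levels at 3 of the 8 with GSNO, 3 with GSH and 5 with GSNO and cPTIO, with none lower, where the shares of all regions were 0.614%, 0.269% and 1.89%. Over the 8 the median log2 differences were 3.16, 2.13 and 3.69 for TSA and 3.56, 2.51 and 4.61 for time.

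CDF3 had the firmest of these calls with GSNO and with GSNO and cPTIO. Its calls for TSA over GSH and for GSH between times were lost whichever single library was left out. The log2 differences then ranged from 2.08 to 2.31 and from 2.70 to 2.85. Its region at chr3:17504417-17506001 had 604 and 541 normalised reads with GSNO, 496 and 446 with GSH, 447 and 502 with GSNO and cPTIO, and 515 in water at 16 h. It had 341 and 289.7 with TSA, 10.5 and 85.1 with GSNO, 65.4 and 70.4 with GSH, 8.57 and 17.61 with GSNO and cPTIO, and 52.1 and 89.9 in water at 3 h. No library of GSNO, GSH, cPTIO or water at 3 h passed 90, and the TSA and 16 h libraries began at 290. TSA exceeded GSNO by 3.32 ± 0.51 (SE; adjusted p = 4.72e-04), and GSNO at 16 h exceeded GSNO at 3 h by 4.19 ± 0.51 (SE; adjusted p = 7.08e-05). CDF1 showed smaller differences of the same sign, 1.05 ± 0.29 (SE; adjusted p = 0.0223, up to 0.128 without 1 library) for TSA over GSNO and 1.44 ± 0.29 (SE; adjusted p = 0.0132, up to 0.149 without 1 library) for GSNO at 16 h over 3 h.

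STO, at chr1:1829036-1829715, had 412 and 446 normalised reads with GSNO, 463 and 372 with GSH, 387 and 467 with GSNO and cPTIO, and 479 in water at 16 h. It had 258 and 221 with TSA, 96.2 and 40.6 with GSNO, 50.03 and 63.0 with GSH, 47.1 and 47.5 with GSNO and cPTIO, and the floor and 23.5 in water at 3 h. Every 16 h library exceeded both TSA libraries, and these exceeded all others of 3 h. TSA exceeded GSNO by 1.91 ± 0.59 (SE; adjusted p = 0.0364, up to 0.217 without 1 library), and GSH at 16 h exceeded GSH at 3 h by 2.86 ± 0.59 (SE; adjusted p = 0.0198, up to 0.423 without 1 library). AT1G06045 also lies under this region. PIF4 had 156 and 155 with TSA, 21.0 and 12.1 with GSNO, 47.1 and 56.4 with GSH, the floor and 36.0 with GSNO and cPTIO, and the floor and 10.9 in water at 3 h, and its 16 h libraries lay between 205 and 257. TSA exceeded GSNO by 3.20 ± 1.04 (SE; adjusted p = 0.0464, up to 0.202 without 1 library) and GSNO with cPTIO by 4.04 ± 1.04 (SE; adjusted p = 0.0101, up to 0.131 without 1 library) at PIF4, whereas its difference from GSH was 1.57 (adjusted p = 0.373). PRR7 followed the same split: 3.42 ± 1.02 (SE; adjusted p = 0.0320, up to 0.214 without 1 library) over GSNO, 4.45 ± 1.02 (SE; adjusted p = 0.00494, up to 0.0609 without 1 library) over GSNO with cPTIO, and 2.33 over GSH (adjusted p = 0.162). The difference of GSNO from GSH at 3 h did not itself pass at either gene (adjusted p = 1.00 at PIF4 and 1.00 at PRR7).

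GI and PRR9, at ranks 3 and 5, had a library at the floor in every 3 h group but TSA, and no limma comparison between treatments or times called them. GI, a clock protein that promotes flowering, had 198 and 138 with TSA, the floor and 10.2 with GSNO, the floor and 8.79 with GSH, the floor and 1.53 with GSNO and cPTIO, and the floor in both libraries in water at 3 h. At 16 h its libraries ranged from 73.1 to 165. PRR9, a morning-phased repressor of the clock, had 68.9 and 65.2 with TSA, the floor and 23.5 with GSNO, the floor and 16.9 with GSH, the floor and 17.61 with GSNO and cPTIO, and the floor in both libraries in water at 3 h, with 150 to 291 at 16 h. At both genes the TSA and 16 h libraries lay above all others. The error of the fit was wide at both: TSA over GSNO was 4.98 ± 5.35 (SE; adjusted p = 0.580) at GI and 3.12 ± 3.08 (SE; adjusted p = 0.543) at PRR9.

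ELF4, an evening component of the clock, ran the other way in time. Its weak region, of rank 351, had the floor and 12.8 normalised reads with GSNO at 16 h, the floor and 8.52 with GSH, the floor in both libraries with GSNO and cPTIO, and the floor in water. It had 127 and 153 with TSA, 104 and 131 with GSNO, 88.5 and 109 with GSH, 123 and 119 with GSNO and cPTIO, and 87.4 and 75.9 in water at 3 h. All 16 h libraries were under 13 and all 3 h libraries above 75, with no overlap. Set against 3 reads per library, the level with GSNO and cPTIO was at least 28.0-fold lower at 16 h than at 3 h. The fitted differences between times at ELF4 did not pass, with -4.33 ± 3.94 (SE; adjusted p = 0.769) for GSNO, and TSA differed from GSNO at 3 h by 0.25 (adjusted p = 0.976).

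**Figure D3:**
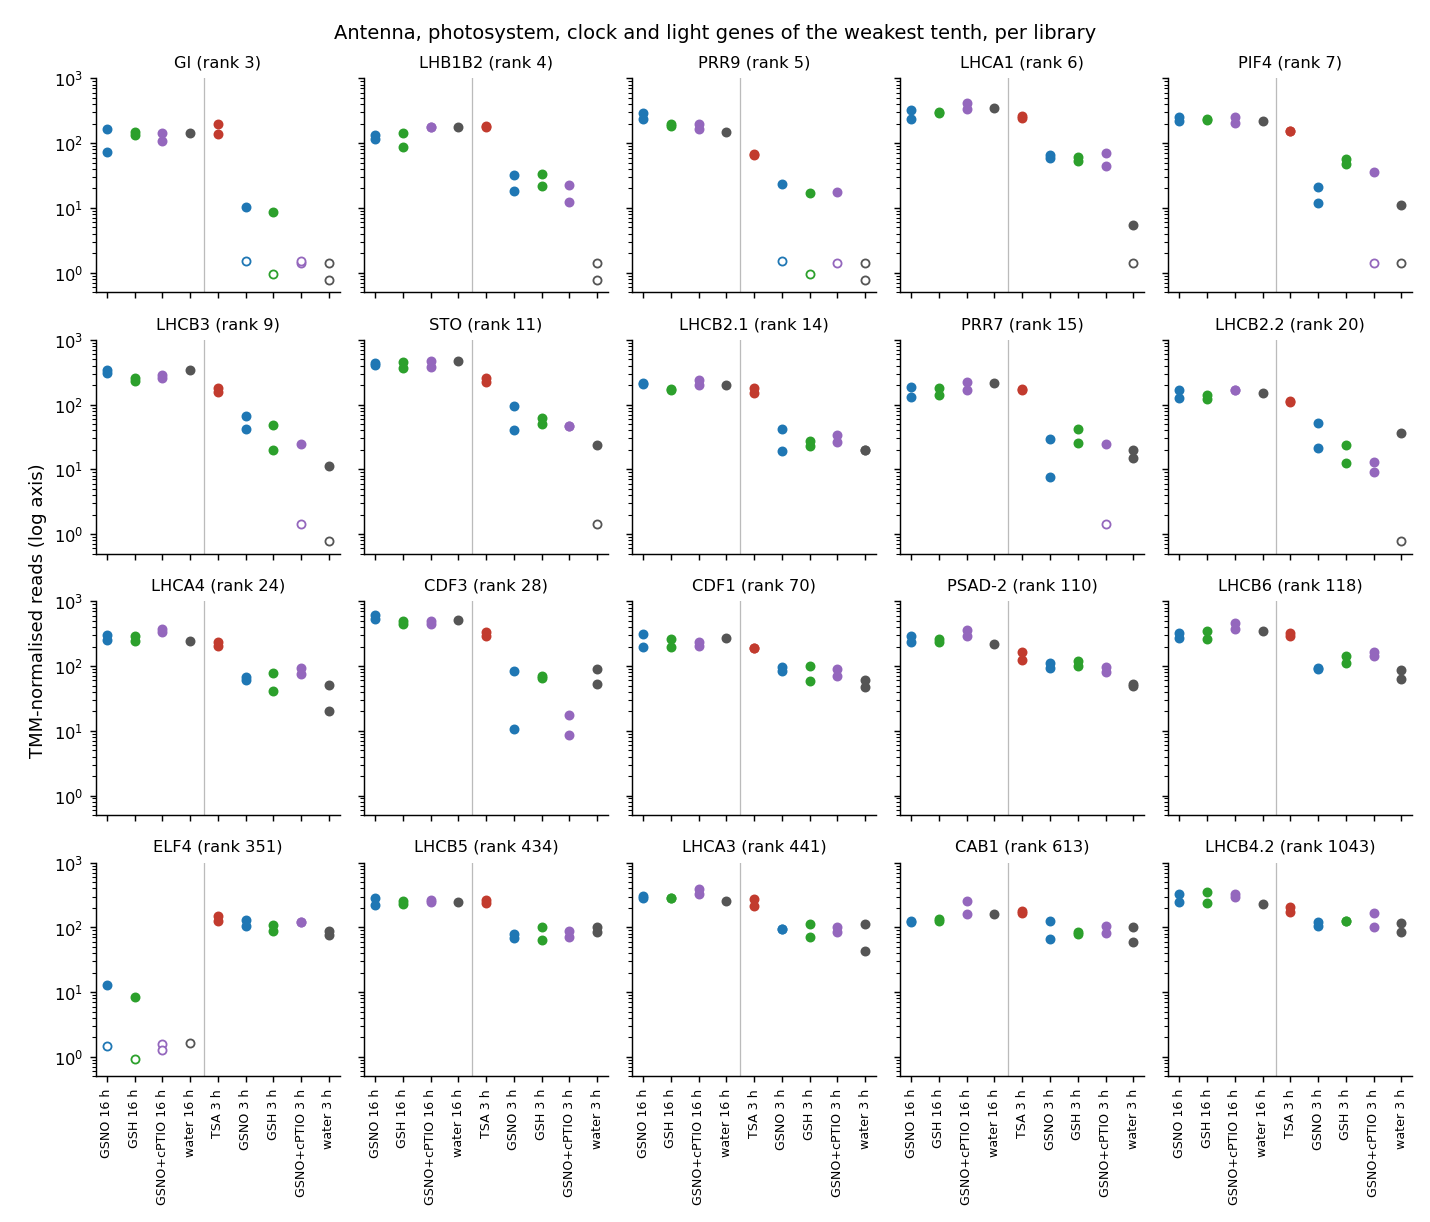
Normalised reads (log axis) in every recovered library for the weak regions of photosynthesis, clock and light genes, with the 16 h groups left of the 3 h groups and 1 point per library. At most genes the 3 h libraries without TSA lie lowest and the TSA and 16 h libraries highest, while ELF4 lies under 13 at 16 h and above 75 at 3 h.

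The weakest region of all lay over MRE11, which encodes a nuclease of DNA double-strand break repair, at chr5:22036689-22037860, beside the region of LHCB3 at chr5:22038461-22039195. MRE11 had 297 and 269.6 normalised reads with GSNO, 295 and 302 with GSH, 357 and 282 with GSNO and cPTIO, and 315 in water at 16 h. It had 7.91 and 53.1 with TSA, the floor and 70.5 with GSNO, 47.1 and 39.6 with GSH, the floor in both libraries with GSNO and cPTIO, and the floor in both libraries in water at 3 h. Both TSA libraries were low, under the deeper GSNO library, while all 16 h libraries stood above 269. TSA over GSNO was 0.71 ± 2.12 (SE; adjusted p = 0.862). Its neighbour LHCB3 had 155 and 178 with TSA, against 66.1 and 41.3 with GSNO, 20.2 and 48.4 with GSH and the floor and 24.5 with GSNO and cPTIO. TSA exceeded GSNO with cPTIO there by 4.41 ± 0.91 (SE; adjusted p = 0.00218), and its differences from GSNO and GSH did not pass (adjusted p = 0.242 and 0.107).

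AT5G06980 and AT3G12320 are listed as LNK4 and LNK3, relatives of the LNK proteins that activate evening clock genes. AT5G06980, at chr5:2167659-2168715, was the second weakest region. It had 537 and 524 normalised reads with GSNO, 532 and 520.0 with GSH, 520.1 and 571 with GSNO and cPTIO, and 484 in water at 16 h. It had 197 and 196 with TSA, the floor and 57.8 with GSNO, 15.4 and 36.6 with GSH, the floor and 17.61 with GSNO and cPTIO, and the floor in both libraries in water at 3 h. The 16 h libraries, from 484 to 571, exceeded both TSA libraries, and these exceeded the rest of 3 h. With GSNO it was higher at 16 h by 5.45 ± 1.06 (SE; adjusted p = 0.00966, up to 0.231 without 1 library), and TSA exceeded GSNO by 4.02 ± 1.06 (SE; adjusted p = 0.0161, up to 0.280 without 1 library). AT3G12320 was higher at 16 h by 3.51 ± 0.39 (SE; adjusted p = 2.40e-05) with GSNO, 2.23 ± 0.39 (SE; adjusted p = 0.00494, up to 0.202 without 1 library) with GSH and 2.67 ± 0.39 (SE; adjusted p = 2.50e-04) with GSNO and cPTIO. Its 16 h libraries lay between 391.6 and 567, against 164 and 198 with TSA and 125.1 at most in the other 3 h groups.

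Further light-related genes outside the lists, named by the size of their differences, moved in time. BBX29, a B-box protein, had 321 and 299 normalised reads with GSNO at 16 h, against 42.1 and 67.3 at 3 h (2.52 ± 0.28 SE, adjusted p = 2.49e-05), and 291 and 298 with GSH at 16 h, against 52.0 and 62.3 at 3 h (2.35 ± 0.28 SE, adjusted p = 8.47e-05). TSA lay between the times at 156 and 165 and exceeded GSNO by 1.57 ± 0.28 (SE; adjusted p = 0.00116). PKS4, a phytochrome-binding protein of phototropism, was higher at 16 h by 2.75 ± 0.31 (SE; adjusted p = 2.34e-05) with GSNO and cPTIO, at 401 and 337, against 74.3 and 39.1 at 3 h. COL2, a relative of CONSTANS, was higher at 16 h by 2.35 ± 0.44 (SE; adjusted p = 0.00796, up to 0.260 without 1 library) with GSNO and 2.02 ± 0.44 (SE; adjusted p = 0.0108, up to 0.110 without 1 library) with GSNO and cPTIO. Its TSA libraries, at 131 and 143, lay close to the highest of the other 3 h libraries, 129, and TSA passed the threshold over GSNO (1.48 ± 0.44 SE, adjusted p = 0.0310, up to 0.564 without 1 library) but not over GSH or GSNO with cPTIO (adjusted p = 0.399 and 0.455). AT3G02370 also lies under the COL2 region.

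The metabolic genes PHT4;1 and AMY3 were at the floor in both GSNO with cPTIO libraries of 3 h. PHT4;1, an anion and phosphate transporter of the plastid, had 228 and 156 with TSA, 31.6 and 48.3 with GSNO, 8.66 and 26.4 with GSH, the floor in both libraries with GSNO and cPTIO, and 11.3 and 31.3 in water at 3 h. Against 3 reads per library, TSA was at least 58.3-fold higher than GSNO with cPTIO. AMY3, a plastid alpha-amylase of starch breakdown, had 154 and 197 with TSA and the floor in both libraries with GSNO and cPTIO, at least 53.2-fold. Their 16 h libraries with GSNO and cPTIO had 203 and 117 at PHT4;1 and 95.1 and 142 at AMY3, at least 48.6-fold and 36.0-fold above 3 h. CIPK20, a protein kinase of calcium signalling, and its neighbour DOG1, a regulator of seed dormancy, were both among the 12 weakest. CIPK20 had 119 and 123 with TSA, 33.1 and 35.6 with GSNO, 41.4 and 18.3 with GSH, the floor and 6.89 with GSNO and cPTIO, and the floor and 19.6 in water at 3 h, and 182 to 339 at 16 h. DOG1 had 90.4 and 111 with TSA and 171 to 259 at 16 h, and its comparisons did not pass (TSA over GSNO 3.63 ± 1.93 SE, adjusted p = 0.222).

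Counted over all 1336, TSA exceeded GSNO at 118 weak regions and was lower at 10 (limma, adjusted p under 0.05), where 3.67% of all regions were called higher and 8.05% lower. Against GSH the counts were 66 and 8, where the shares of all regions were 2.07% and 6.36%. Against GSNO with cPTIO they were 204 and 5, where the shares were 5.89% and 10.4%. The difference was positive at 80.3% of the weak regions against GSNO, 76.7% against GSH and 83.4% against GSNO with cPTIO. In the other regions it was positive at 48.2%, 47.2% and 47.7%. Median log2 differences were 0.47, 0.36 and 0.57 in the weak regions, against -0.02, -0.03 and -0.03 in the rest. Weak regions may be in the set through peaks of TSA, and what part this has in these counts was not tested.

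**Figure D4:**
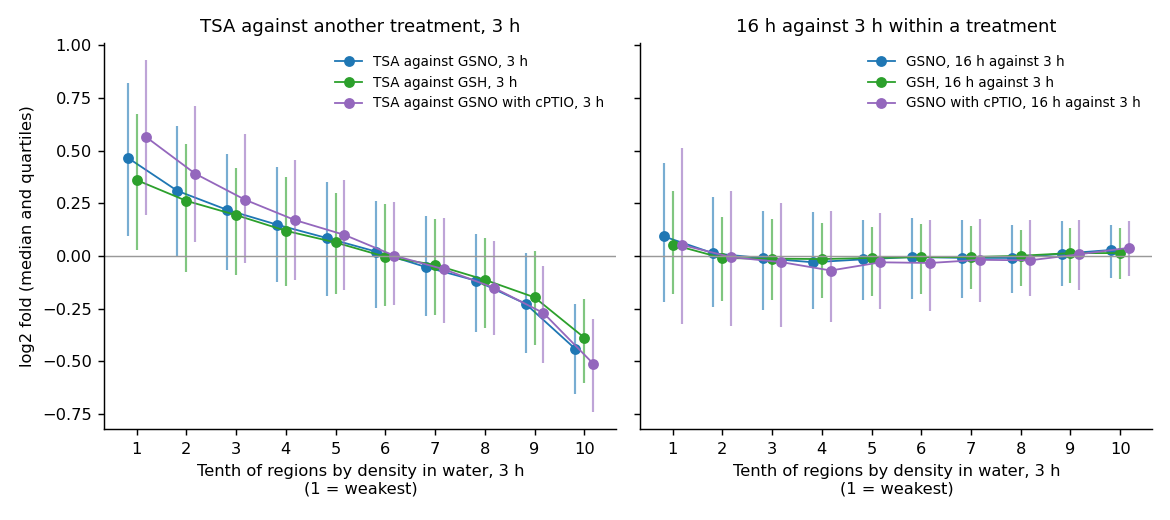
Median log2 difference, with quartiles, of TSA against GSNO, GSH and GSNO with cPTIO at 3 h, and of 16 h against 3 h, over blocks of 10% of all regions ordered by their level in water at 3 h. The TSA medians against GSNO go down from 0.47 in the weakest block to -0.44 in the strongest, while the medians between times stay within 0.1 of 0.

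The weak regions were the end of a gradient in these comparisons. Against GSNO the medians over successive blocks of 10% by level in water were 0.47, 0.31, 0.22, 0.15, 0.08, 0.02, -0.05, -0.12, -0.23 and -0.44. Against GSNO with cPTIO the weakest block had 0.57 and the strongest -0.51. The weak regions hold fewer reads and had a wider error: the median 95% interval of a difference was ± 0.82 in them, against ± 0.45 in the rest. The counts and their balance of higher and lower calls depend on single libraries. Without the deeper TSA library, the calls against GSH no longer leaned to higher with TSA, and those against GSNO leaned less. The median differences were then 0.35 against GSH and 0.45 against GSNO. Against GSNO the total of 128 fell to 12 without the shallower GSNO library, 29 without the shallower TSA library and 35 without the deeper TSA library, and was 225 without the deeper GSNO library. Against GSH the total of 74 fell to 6 and 21 without the shallower and the deeper GSH library and to 13 and 23 without the shallower and the deeper TSA library. Against GSNO with cPTIO the total of 209 fell to 72 without the shallower cPTIO library and to 61 and 64 without the shallower and the deeper TSA library. The median stayed positive in each case, from 0.25 to 0.66 over the 3 comparisons.

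Calls were checked without single libraries for the named regions, of which 30 were called against GSNO, 21 against GSH and 30 against GSNO with cPTIO in either direction. Among the named regions that TSA raised, those that kept their call over GSNO without any single library were LHCA1, LHCA4, LHCB5, LHCB6, CDF3, BBX29 and AT3G48240. AT3G48240 had 212 and 209 normalised reads with TSA, against 18.0 and 45.7 with GSNO, a difference of 2.83 ± 0.45 (SE; adjusted p = 5.55e-04). Against GSH these were LHCA1, LHCB5 and LHCB6. Against GSNO with cPTIO they were AMY3, CDF1, CDF3, CIPK20, LHCA1, LHCB3, LHCB5, LHCB6 and PHT4;1. At several regions the shallower GSNO library was at the floor. At CPZ, which encodes a tRNA-processing RNase Z, GSNO had the floor and 81.9 and TSA 143 and 159 (3.40 ± 0.91 SE, adjusted p = 0.0177, up to 0.365 without 1 library, with a log2 difference of 0.88 without the shallower GSNO library), and at AT5G49690 GSNO had the floor and 71.1 and TSA 168 and 169 (3.66 ± 1.04 SE, adjusted p = 0.0247, up to 0.410 without 1 library, with 1.23 without that library). AIRP2, a RING ubiquitin ligase of abscisic acid responses, had a pair of weak regions, each with 1 low library: the one at chr5:206566-207314 had 157 and 207 with TSA and 3.01 and 83.8 with GSNO.

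The weak regions that TSA lowered were few, and PPC2 had the largest difference. PPC2 encodes phosphoenolpyruvate carboxylase, which fixes carbon into organic acids, and its region at chr2:17734424-17735143 was near the limit of the rule, at rank 1110. It had the floor and 11.1 with TSA, 129 and 126 with GSNO, 74.1 and 108 with GSH, 54.3 and 77.3 with GSNO and cPTIO, and 106 and 86.8 in water at 3 h. Both TSA libraries lay under 12 and all other libraries, of 3 h and 16 h, above 54. TSA was lower, with log2 differences of -4.66 ± 0.66 (SE; adjusted p = 1.89e-04) from GSNO, -4.16 ± 0.66 (SE; adjusted p = 7.20e-04) from GSH and -3.70 ± 0.66 (SE; adjusted p = 6.86e-04) from GSNO with cPTIO, and these calls held without any single library. HSL1 (VAL2), a B3 repressor of embryonic genes, had the floor and 76.3 with TSA, against 152 and 98.4 with GSNO and 125.1 and 98.2 with GSH. TSA was lower than GSNO there, with a log2 difference of -3.26 ± 0.89 (SE; adjusted p = 0.0195, up to 0.446 without 1 library), and -0.67 without the shallower TSA library. SSE1, the peroxisome biogenesis factor PEX16, had 35.0 and 114 with TSA, against 144 and 189.9 with GSNO (log2 difference -1.37 ± 0.36 SE, adjusted p = 0.0169, up to 0.381 without 1 library, with -0.54 without the shallower TSA library). AT3G43610 had 39.5 and 58.6 with TSA, against 100.7 and 133 with GSNO and 127 and 142 with GSH (log2 difference from GSH -1.46 ± 0.39 SE, adjusted p = 0.0234, up to 0.187 without 1 library). XTH18, a xyloglucan-modifying enzyme of the cell wall and the only weak region among 7 of expansins and such enzymes, had 32.8 and 66.3 with TSA, against 129.9 and 103 with GSH (log2 difference -1.29 ± 0.39 SE, adjusted p = 0.0404, up to 0.353 without 1 library).

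Between 16 h and 3 h the median over the weak regions was near 0 and the called regions were mostly higher at 16 h. With GSNO, 34 were higher at 16 h and 0 lower, where 0.614% of all regions were called higher and 0.269% lower. With GSH, 21 were higher and 0 lower, where the shares were 0.269% and 0.225%. With GSNO and cPTIO, 65 were higher and 8 lower, where the shares were 1.89% and 1.55%. The weak regions made up 34 of the 82, 21 of the 36 and 65 of the 252 regions called higher. Regions low at 3 h may be in the set through peaks of 16 h, so these counts are a description. What part such entry has was not tested. Of the 25 weakest, 5, 4 and 12 were called higher, and of the 836 at ranks 501 to 1336, 10, 4 and 21. The medians over all weak regions were 0.09, 0.05 and 0.05, whereas over the 25 weakest they were 3.19, 2.73 and 4.27 and over ranks 501 to 1336 they were 0.04, 0.03 and 0.00. The median over all weak regions changes sign without single libraries: it ranged from -0.13 to 0.29 with GSNO, from -0.04 to 0.17 with GSH and from -0.06 to 0.14 with GSNO and cPTIO. When the weak regions were taken by density in water at 16 h in place of 3 h, the calls were mostly lower at 16 h: 0 higher and 14 lower with GSNO, 0 and 12 with GSH, and 5 and 48 with GSNO and cPTIO, with medians of -0.13, -0.15 and -0.22. The labels do not say whether the 3 h and 16 h libraries were made together. Hours under a chemical, the hour of the day at harvest and any batch of libraries cannot be told apart here.

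These counts, and their balance of higher and lower calls, also moved with single libraries. Without the deeper 16 h library, more weak regions were called lower with GSNO and with GSNO and cPTIO. The calls were then less one-sided, and the medians over all weak regions were 0.01 and 0.08. With GSNO the 34 fell to 10 without the shallower 3 h library and 12 without the shallower 16 h library, and was 93 without the deeper 3 h library. With GSH the 21 fell to 7 and 5 without the shallower and the deeper 3 h library and to 1 and 8 without the shallower and the deeper 16 h library. With GSNO and cPTIO the total of 73 fell to 33 without the shallower 3 h library and to 48 without the shallower 16 h library. The same check covered the named regions called between times, 19 with GSNO, 15 with GSH and 30 with GSNO and cPTIO. Those whose rise held without any single library were LHCB5, LHCB6, CDF3, BBX29, PKS4, AT3G12320 and AT3G02460 with GSNO, and BBX29 with GSH. With GSNO and cPTIO they were LHCA1, LHCA3, LHCA4, LHCB3, LHCB5, LHCB6, PSAD-2, CDF3, STO, BBX29, PKS4, CIPK20, AMY3, AT5G06980 and AT3G12320. AT3G02460 had 316 and 319.5 with GSNO at 16 h, against 36.1 and 109 at 3 h, a difference of 2.32 ± 0.30 (SE; adjusted p = 1.42e-04), and stood at 131 and 144 with TSA.

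The 8 weak regions called lower at 16 h were called with GSNO and cPTIO, and the 5 of largest difference follow. AT1G64330 had 7.93 and the floor normalised reads with GSNO and cPTIO at 16 h, against 104 and 128 at 3 h, a log2 difference of -4.68 ± 0.84 (SE; adjusted p = 0.00203). FHY1, which carries phytochrome A into the nucleus, had 9.51 and 9.10 at 16 h, against 82.9 and 100.3 at 3 h (log2 difference -3.16 ± 0.67 SE, adjusted p = 0.00871, up to 0.0625 without 1 library). At FHY1 the 16 h libraries of GSNO had 61.2 and 60.6 and those of GSH 84.2 and 73.9, with 33.4 in water. AT4G10470, AT5G53150 and AT5G53730 were lower too, with log2 differences of -2.198, -2.94 and -1.93 (adjusted p = 0.0222, 0.0323 and 0.0447). The cPTIO pair of 16 h differed within itself at AT5G53150, with 3.17 and 67.6. Of these 5, the call at AT1G64330 alone held without any single library.

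At 16 h each chemical was set against water, and the authors' deposited table called 47 weak regions higher with GSNO, 88 with GSH and 25 with GSNO and cPTIO (FDR under 0.05), where 0.913%, 2.09% and 0.457% of all regions were called higher. It called 0, 0 and 7 lower, where 0.0225%, 0.0674% and 0.105% of all regions were called lower. All rest on the single water library, so the spread of water at 16 h was not measured. In the limma fit, where that library is assumed to vary like the other groups, 13, 13 and 15 weak regions were called. The share of all regions called in that fit is not given here, so these counts are not set against a background. The largest differences were at regions where the water library was near the floor while neighbouring groups were not. FBS4, an F-box protein of stress responses, had 197 and 133 with GSNO, 114 and 139 with GSH and 90.4 and 80.6 with GSNO and cPTIO, against the floor in water at 16 h. It had 76.1 and 97.8 in water at 3 h. Against 3 reads the 16 h level was at least 32.9-fold higher with GSNO, 25.3-fold with GSH and 17.1-fold with GSNO and cPTIO.

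AT4G27270 and AT2G34730 had the same form. AT4G27270 was at the floor in water at 16 h and at least 18.9-fold, 22.3-fold and 19.7-fold higher with GSNO, GSH and GSNO with cPTIO. Its neighbour AT4G27280 lies under the same region. AT2G34730 was at least 15.1-fold, 17.2-fold and 16.2-fold higher. A region with no annotated gene, at chr3:17911969-17912686, had 56.7 and 119.8 with GSNO, 112 and 154 with GSH and 103 and 124.8 with GSNO and cPTIO, against the floor in water at 16 h. CYP81H1, a cytochrome P450, had 129.8 and 138 with GSNO, 122 and 129 with GSH and 135 and 83.2 with GSNO and cPTIO, against 3.34 in water. The 3 comparisons share that water library, and its low values are counted in each.

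None of the 12 antenna and photosystem regions or of the 8 clock and light regions was called in these 3 comparisons. At 16 h LHCA1 had 344 normalised reads in water and CDF3 515, each within the range of the 6 chemical libraries of that time. In the authors' deposited table the log2 differences from water at 16 h at LHCA1 were -0.29 with GSNO, -0.19 with GSH and 0.13 with GSNO and cPTIO. At MRE11 they were -0.15, -0.08 and 0.02. These differences rest on the 1 water library, whose own spread was not measured.

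The differences from water at 3 h include the libraries that chose the regions and are given as a description. The authors' deposited table called 648 weak regions higher and 15 lower with TSA, where 10.7% of all regions were called higher and 10.1% lower. It called 6 higher with GSNO, 14 with GSH and 2 with GSNO and cPTIO, and 3 lower with GSNO and cPTIO, where 0.0449%, 0.105%, 0.015% and 0.0225% of all regions were called. The deposited log2 differences of TSA from water at 3 h were 7.47 at AT5G06980, 6.19 at LHCA1 and -3.99 at PPC2. The photosynthesis list had 12 and the clock and light list 8 weak regions called higher with TSA there.

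No weak region was called between GSNO and GSH, or between GSNO and GSNO with its scavenger, at either time (limma, adjusted p under 0.05). Of all regions 0% were called in these comparisons, except 0.0225% higher with GSNO than with GSNO and cPTIO at 16 h. At an unadjusted p under 0.05 there were 51 weak regions for GSNO against GSH at 3 h, 87 for GSNO against GSNO with cPTIO at 3 h, 25 for GSNO against GSH at 16 h and 117 for GSNO against GSNO with cPTIO at 16 h. These are 3.82%, 6.51%, 1.87% and 8.76% of the weak regions, where the shares of all regions were 1.71%, 4.61%, 2.52% and 9.71%. The intervals are wide: the 95% interval of the difference lay within 1 log2 unit of 0 at 560 weak regions (41.9%) for GSNO against GSH at 3 h, 489 (36.6%) for GSNO against GSNO with cPTIO at 3 h, 561 (42.0%) for GSNO against GSH at 16 h and 455 (34.1%) for GSNO against GSNO with cPTIO at 16 h. For most weak regions a difference of that size could thus not be bounded. At LHCB6 the difference of GSNO from GSH at 3 h was -0.44 ± 0.21 (SE; adjusted p = 1.00) and at CDF3 -1.13 ± 0.51 (SE; adjusted p = 1.00). The number called did not stay at 0 in every fit without 1 library. In those fits the median log2 difference over the weak regions ranged from -0.26 to 0.13 for GSNO against GSH at 3 h. For GSNO against GSNO with cPTIO at 3 h it ranged from -0.08 to 0.31. At 16 h the ranges were -0.16 to 0.07 for GSNO against GSH and 0.03 to 0.24 for GSNO against GSNO with cPTIO. No weak region was called for a change between times that differed between GSNO and GSH, or between GSNO and GSNO with cPTIO (limma interaction, adjusted p under 0.05). Of all regions 0 were called for either. At an unadjusted p under 0.05 there were 28 (2.1%) and 78 (5.84%) of the weak regions, and the share of all regions is not given here.

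The peak lists, called per library by the submitters, give a view of the weak regions that includes TSA at 16 h. A peak covered at least 1 base of 75.2% and 51.3% of the weak regions in the lists of replicates 1 and 2 of TSA at 3 h. For water at 3 h the figures were 68.2% and 2.02%. In the other regions they were 90.3% and 76.5% with TSA and 98.1% and 73.8% in water. No peak of either water list of 3 h touched 418 weak regions (31.3%), against 175 of the other regions (1.46%). The water lists of 3 h come from the samples whose level chose the weak regions, so their low coverage there is a description that follows from the rule. TSA at 16 h covered 77.7% of the weak regions in one list and 0.225% in the other, a list that also covered 2.51% of the rest. The lists differ so much within pairs that they rank no treatments: water at 16 h covered 10.6% and 0.150%, GSH at 16 h 83.4% and 78.1%. A weak region was touched in a median of 8 of the 20 lists, and another region in 16.

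**Figure D5:**
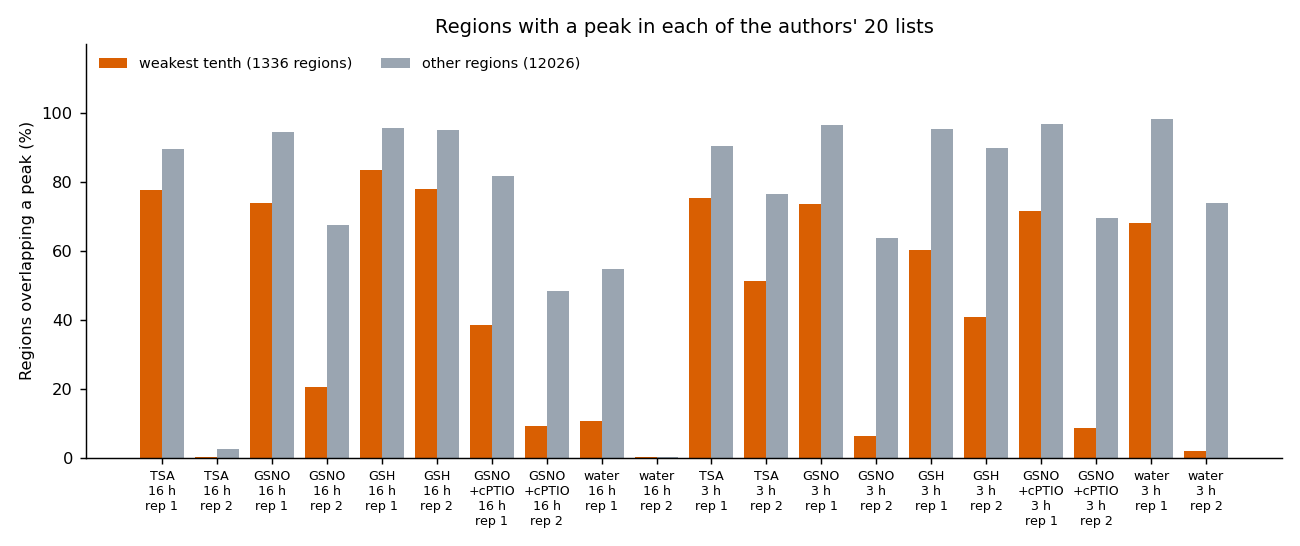
Percent of the weak regions and of the other regions touched by a peak in each of the 20 deposited peak lists, by treatment, time and replicate. The weak regions lie under the others in all lists but that of replicate 2 of water at 16 h, with 75.2% and 51.3% for TSA and 68.2% and 2.02% for water at 3 h, and lists of 1 pair differ widely.

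Among the named weak regions, AT5G06980 was touched in 8 lists of 16 h and 2 of 3 h, and MRE11 in 7 and 0. LHCA1 was touched in 7 of 16 h and 2 of 3 h. ELF4 was touched in 0 of 16 h and 8 of 3 h.

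Of all regions 10% are weak by the rule, and the other gene groups held 0 or 1 weak region each. None of the 12 regions of nitric oxide, nitrate and glutathione genes, the 7 of immunity and salicylic acid genes, the 7 of cold, drought, heat and low-oxygen genes, the 2 of jasmonate and ethylene genes, the 2 of root markers or the 1 of shoot and stomatal markers was weak. Seed storage genes had no region at all. DOG1 was 1 of the 2 regions of flower, meristem and embryo regulators and XTH18 1 of the 7 of expansins and xyloglucan enzymes. Of 7 regions of reference genes, the one at PP2AA3, a scaffold subunit of a protein phosphatase, was weak. It had 122 and 148 with TSA, 123 and 123 with GSNO, 88.5 and 99.7 with GSH, 68.6 and 129 with GSNO and cPTIO, and 28.2 and 129 in water at 3 h, and TSA differed from GSNO by 0.12 (adjusted p = 0.899).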

How the data were processed

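The submitters' processing notes name the builds TAIR10 and TAIR9 and the tools DiffBind and edgeR. No source used here names the aligner or the peak caller. The 7 deposited tables give, for the same 13362 regions, log2 group means, log2 fold changes, p-values and FDR values by the authors. Deposited peak lists hold scores, fold or signal values and −log10 p, of which positions alone were used, without 14 lines of another layout in 14 lists.

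The deposited log2 means are means of whole reads divided by a factor, so whole reads per library were solved for. Pairs of libraries were solved to within 1e-08 of a whole read. The reads were 100% whole and gave back the deposited means within a relative gap of 3.33e-14. They were normalised by TMM and tested with limma 3.58.1 (R 4.3.3, trend, pseudocount 1, 9 groups in one fit, 13362 regions, Benjamini-Hochberg, adjusted p under 0.05). For comparisons with water the authors' deposited fold and FDR were kept. On simulated data for TSA against GSNO 76% of 2-fold and 100% of 4-fold changes were called, and 3.83% of the calls were false. Over all comparisons simulated, the false share reached 10.8%. The changed regions were drawn from all 13362, with the same setting of spread for every region. The median SE in the real data was 0.39 in the weak regions and 0.22 in the rest. The simulated shares thus do not describe the weak regions. The largest TMM factor differed by 2.38% from 1.

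Regions carry the gene they overlap most in RefSeq's TAIR10.1 gene table. The weak regions and gene lists were chosen with earlier results of these data known. Named regions are, per comparison, the 10 largest called increases and 5 largest called decreases without overlap between groups, the 5 weakest, 3 on each side of the limit, and listed genes (in lists over 8, the 8 largest folds with TSA). The other listed genes and neighbouring genes were named after their values were seen. Bounds against a group at the floor use 3 reads per library. They apply to the recovered counts, and whether input reads had been subtracted from these was not examined. Replicate spread is that of 2 libraries per group. Alternatives covered single libraries, size factors, pseudocount, trend, groups fitted, a filter and the rule for weak regions.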

Additional observations from a re-analysis of the deposited data

How the results depend on the processing

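Single comparisons kept their direction at every named region under every alternative run: of 725 values for 145 limma calls, 641 kept the call and 84 lost it, and of 580 values that leave out 1 library, 314 kept it and 266 lost it. The 123 calls of the deposited test against water were less stable: limma on all libraries kept 58 and lost 65, and of 408 limma values that leave out 1 library, 142 kept the call and 266 lost it. The kept direction is no support where 1 library was left out. The rule for naming took called regions whose libraries do not overlap between groups, and there leaving out 1 library cannot reverse the direction. The share of weak regions in the lowest 10% of other libraries and the peak coverage moved little. Counts of called regions moved more, and the cause was not tested.

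When the weak regions were taken from water at 16 h instead, 474 regions (35.5%) were shared, and the totals called were 49, 38 and 105 for TSA against GSNO, GSH and GSNO with cPTIO. For the times they were 14 with GSNO and 12 with GSH, all lower at 16 h, and 53 with GSNO and cPTIO, of which 48 were lower, against 8 of 73 by water at 3 h. Against water they were 335, 0, 0 and 0 at 3 h (TSA, GSNO, GSH, GSNO with cPTIO) and 121, 265 and 65 at 16 h, where the rule then used that library. For GSNO against GSNO with cPTIO at 16 h the count was 2. Taken by level alone, 997 regions (74.6%) were shared, and GSNO between times gave 22. Fitting only the groups compared gave 297, 434 and 405 for TSA against GSNO, GSH and GSNO with cPTIO, and 53, 98 and 44 for time with GSNO, GSH and GSNO with cPTIO. Without the trend, GSNO against GSNO with cPTIO gave 2 at 3 h and 3 at 16 h, and GSNO between times 21. With limma in place of the deposited test, the comparisons with water gave 301, 1, 1 and 1 at 3 h and 13, 13 and 15 at 16 h. The share of all regions called under these alternatives is not given here.

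Leaving out 1 library gave, against water at 3 h, 73 to 359 for TSA, 1 to 36 for GSNO, 1 to 43 for GSH and 1 to 31 for GSNO with cPTIO, and at 16 h 9 to 15, 6 to 10 and 14 to 42 for GSNO, GSH and GSNO with cPTIO. It gave 12 to 225, 6 to 23 and 61 to 213 for TSA against GSNO, GSH and GSNO with cPTIO, and 10 to 93, 1 to 8 and 33 to 101 for time with GSNO, GSH and GSNO with cPTIO. GSNO against GSH gave 0 to 31 at 3 h and 0 to 12 at 16 h, and GSNO against GSNO with cPTIO 0 to 21 and 0 to 43. A pair reduced to 1 library is assumed to vary like the other groups. The shares of all regions called in the fits without 1 library are not given here, so those counts are not set against a background. No paired analysis was possible because the recovered libraries carry no replicate numbers. Precision is limited by 2 libraries per group, by 1 water library at 16 h, and by the few reads of the weakest regions, where 1 read is the lowest value.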

Other observations

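Neighbouring genes recurred in the tail. MRE11 and LHCB3, the first and ninth weakest regions, lie side by side on chromosome 5, as do CIPK20 and DOG1, the tenth and twelfth. At 16 h all 4 had libraries between 171 and 357 normalised reads. With TSA at 3 h LHCB3 had 155 and 178 and its neighbour MRE11 7.91 and 53.1, whereas CIPK20 had 119 and 123 and DOG1 90.4 and 111. These pairs were picked after their ranks were seen.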
